A study of Mus musculus with 15 samples.

Results

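Interferon-stimulated genes were read in bulk RNA-seq of 4T1 cells, a mouse mammary carcinoma line grown without other cell types. A list of 36 symbols defined the set, which holds STAT and IRF factors, antiviral effectors and interferon-induced GTPases. The count table of 40402 genes has a row for 35 of them, and Mx2, which has no row under that symbol, was not analysed here. Of the 35, 32 were among the 17647 genes tested, where a gene was tested if it reached 1 CPM, a count scaled to the size of its library, in at least 1 library. Ifit3, Oas2 and Cmpk2 did not reach it.

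Type I interferons bind the IFNAR1 and IFNAR2 receptor, whose kinases JAK1 and TYK2 phosphorylate STAT factors, STAT2 among them. These join IRF9 and bind the interferon-stimulated response element (ISRE) in the promoters of target genes. The targets block viral replication, tag proteins with the ubiquitin-like protein ISG15, degrade RNA, widen the sensing of nucleic acids and attract lymphocytes. In tumour cells the same genes can be active without infection.

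The cells were wild-type 4T1 throughout and were left untreated or received 1 of 4 berry treatments, added 24 hours after seeding. BLA was blackberry extract and BLU was blueberry extract. BLA-A and BLU-A were gold nanoparticles made with the blackberry or the blueberry extract. The labels give 3 columns per condition, 15 in all, and each carries a batch date of its own, so batch and condition cannot be told apart. The labels and the study call these replicates. A summary in the study's supplement gives 1 raw read total per condition and equal read subsets for its columns, which was read here as 1 sequenced library each. They differed by less than sampling noise (chi-square per degree of freedom from 0.0951 to 0.475), so the 3 were averaged and counted as 1 library, and n = 1 for every condition. Gold particles without extract were not analysed here.

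The libraries held 25613778 to 26956442 counts. A gene at 3 counts stands at 0.111 to 0.117 CPM, the limit that a count of 0 allows. Intervals here cover counting error only, since reads without molecular identifiers are not independent molecules. The 6 epithelial markers summed to 801.5 CPM in BLA, 1040 CPM in untreated cells and 1396 CPM in BLA-A, with Krt5 at or under 3 counts throughout. Epcam went against the sum, at 68.9 CPM in untreated cells and 39.7 CPM in BLA-A. The 8 leukocyte markers summed to 9.62 to 12.0 CPM, with Lyz2 at or under 3 counts in every library. The 4 endothelial markers summed to 2.57 to 6.42 CPM and the 5 fibroblast markers to 88.2 to 103.6 CPM. The part of these marker levels in the results was not tested. In bulk RNA, fewer cells that use a gene and less RNA of it per cell cannot be told apart.

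The ISRE core was searched as GAAANNGAAA on either strand of the 250 bases before each gene start. RefSeq promoters were found for 28 of the 36 genes, and 11 of the 28 (39.3%) held the core, against 936 of 27025 genes with a promoter (3.46%). The core is shown for the 6 genes that hold it and have the largest count in any library. It is the element through which the STAT and IRF factors are known to act. Each line gives the strand of the gene, 5′ to 3′, with matches in capitals, and a match that starts with TTTC is the core read on the other strand.
Stat2: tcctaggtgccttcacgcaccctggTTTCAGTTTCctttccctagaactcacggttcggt
Cxcl10: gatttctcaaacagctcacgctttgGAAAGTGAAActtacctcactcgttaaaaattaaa
Ifit1: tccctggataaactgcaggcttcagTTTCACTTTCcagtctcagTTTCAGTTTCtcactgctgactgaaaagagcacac
Bst2: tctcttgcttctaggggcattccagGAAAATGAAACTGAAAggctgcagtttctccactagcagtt
Gbp2: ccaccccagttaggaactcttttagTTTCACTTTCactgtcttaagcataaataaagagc
Isg15: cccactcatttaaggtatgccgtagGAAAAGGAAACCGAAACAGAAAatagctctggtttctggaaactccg

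These windows lie on GRCm38.p6, the build of the promoter table. The Stat2 window is chr10:128270251-128270310 on the plus strand, Cxcl10 is chr5:92349068-92349127 on the minus strand and Ifit1 is chr19:34640760-34640838 on the plus strand. The Bst2 window is chr8:71537562-71537627 on the minus strand, Gbp2 is chr3:142620579-142620638 on the plus strand and Isg15 is chr4:156200850-156200921 on the minus strand. Ifit1 and Bst2 each held 2 matches, those of Bst2 overlapping, and of the 3 matches of Isg15 each overlaps the next.

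The question put to the data was whether any of the 4 treatments moved the interferon-stimulated genes. A change was called where the log2 fold change, on CPM normalised by trimmed mean of M values (TMM) plus 0.5, exceeded 1 in size. With 1 library a condition there is no test between 2 libraries. By that limit, 25 of the 32 tested members changed in none of the 4 comparisons, 5 changed in exactly 1 (Bst2, Cxcl10, Dhx58, Usp18 and Zbp1) and 2 in 3 (Ifi44 and Oas3). The 7 are 21.9% of the members, and 35.3% of all genes tested changed in at least 1 comparison. The 4 comparisons share the same untreated library.

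In BLA, 3 of 32 members were higher (Ifi44, Oas3 and Zbp1), against 7.92% of all genes tested, and 1 was lower (Dhx58), against 8.54%. In BLU, Ifi44 alone was higher, against 5.66%, and no member was lower, against 4.64%. In BLA-A, 3 were higher (Bst2, Cxcl10 and Oas3), against 8.54%, and Usp18 was lower, against 12.4%. In BLU-A, Ifi44 and Oas3 were higher, against 3.35%, and no member was lower, against 4.5%. With 1 CPM required in every library or a pseudocount of 2 CPM, 0 members changed in BLA, BLU or BLU-A. In BLA-A, 2 (Cxcl10 and Usp18) and 3 changed under those settings. As shares of the 32, 3 members are 9.38%, 2 are 6.25% and 1 is 3.12%.

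**Figure D1:**
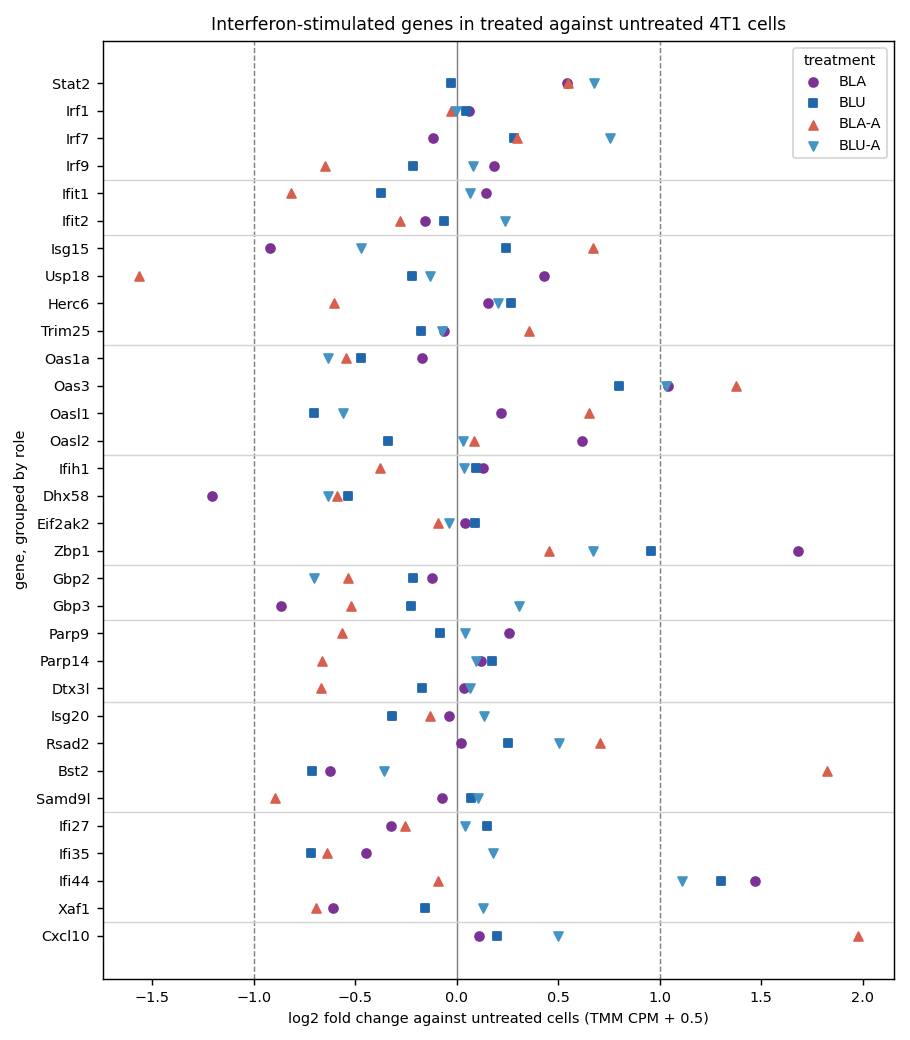
Log2 fold change against untreated cells (x axis, TMM CPM plus 0.5) of each tested interferon-stimulated gene (y axis, grouped by role), with 1 point per treatment and dashed lines at the limit of 1 in size. Most points lie between the dashed lines, and the farthest are Cxcl10 and Bst2 in BLA-A to the right and Usp18 in BLA-A to the left.

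The median log2 fold change of the members was 0.04 in BLA and -0.07 in BLU, then -0.27 in BLA-A and 0.07 in BLU-A. Over all genes tested the medians were -0.01, -0.01, -0.01 and 0.00 in the same order. The BLA-A median was the farthest from that of all genes, with 21 of 32 members below 0, beside 8965 of the 17647 genes tested. In BLU-A 22 of 32 members were above 0, beside 8858 of the 17647. Under scaling by total counts the median of all genes in BLA-A moved by -0.18 and that of the members became -0.45. Of the genes past the limit in BLA-A, 40.8% were higher under TMM and 28.4% under total counts.

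**Figure D2:**
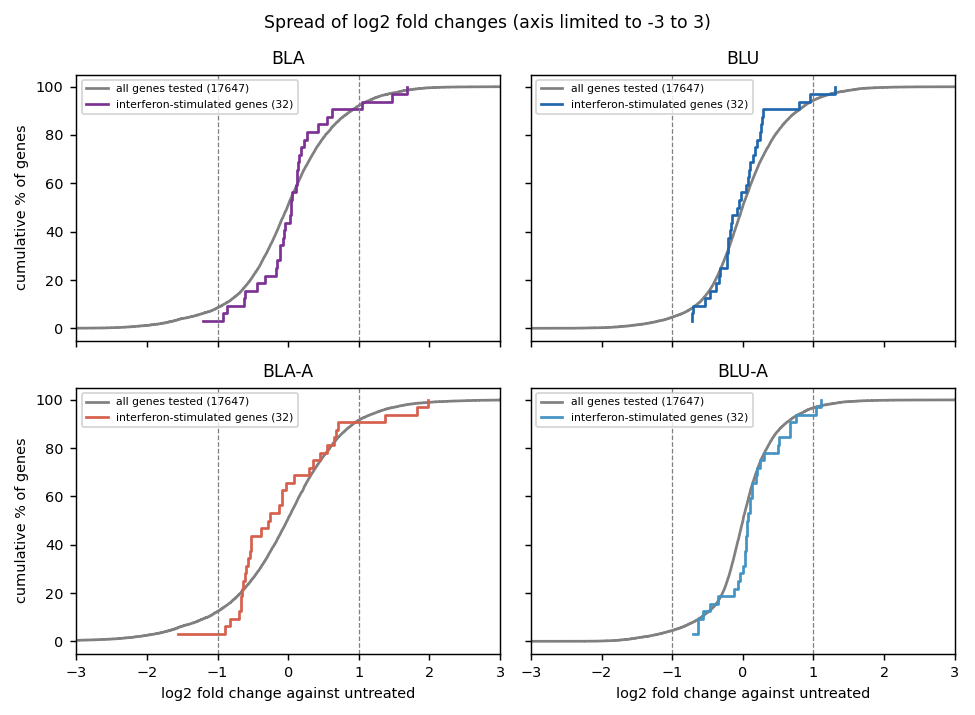
Cumulative percent of genes (y axis) by log2 fold change against untreated cells (x axis, cut at both ends) in 4 panels, one per treatment, for all 17647 genes tested (grey) and the 32 interferon-stimulated genes (colour). The coloured line runs near the grey one in BLA, BLU and BLU-A, and in BLA-A it lies above the grey line just left of 0. There 21 of 32 members and 8965 of the 17647 genes are below 0.

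Every call against untreated cells fell on a member with a mean under 10 CPM. In BLA-A, 1 of 9 members under 2 CPM changed, against 37.3% of all genes in that range. From 2 to 10 CPM, 3 of 6 changed there, against 24.7%. In BLA, BLU and BLU-A, 4, 1 and 2 of the 9 changed, against 39%, 27.5% and 23.5%. In these treatments 0 of the 6 changed, against 21%, 12% and 8.86%. Of the 32, 23 reached 1 CPM in every library, and 9 were tested although at least 1 library was under 1 CPM (Isg15, Oas1a, Oas3, Rsad2, Dhx58, Bst2, Ifi44, Gbp3 and Zbp1). A gene that passed the filter only where it was high is more apt to show a difference. None of the 13 members with a mean of 10 to 50 CPM and none of the 4 above 50 CPM changed in any treatment. In those 2 ranges 14.8% and 10% of all genes changed in BLA-A, and 6.35% and 3.92% in BLA. The shares were 2.77% and 1.96% in BLU, and 1.19% and 0.485% in BLU-A.

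The transcription factors of the pathway did not pass the limit in any treatment. Stat2, the partner of IRF9, stood at 9.34 CPM in untreated cells, 13.8 in BLA and 9.14 in BLU, then 13.9 in BLA-A and 15.2 in BLU-A. Its level was similar in untreated and BLU cells and higher in the other three libraries, with a largest log2 fold change of 0.67 in BLU-A.

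Irf9, which gives the complex its DNA contact, stood at 11.3 CPM in untreated cells, 12.9 in BLA and 9.62 in BLU, then 6.99 in BLA-A and 11.9 in BLU-A. BLA-A was the lowest, 1.61-fold under untreated cells (95% interval 1.33 to 1.96), which is a log2 fold change of -0.65. In the same library Stat2 was at 0.55.

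Irf1, a factor of the interferon-gamma response, stood at 32.2 CPM in untreated cells, 33.6 in BLA and 33.2 in BLU, then 31.6 in BLA-A and 32.1 in BLU-A. Its 4 log2 fold changes ran from -0.03 to 0.06, and their sign turned in BLU and BLA-A under DESeq2 size factors. Irf7, which amplifies interferon-alpha production, stood at 1.31 CPM in untreated cells, 1.18 in BLA and 1.71 in BLU, then 1.73 in BLA-A and 2.57 in BLU-A. It rests on 32 to 68 counts a library.

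Cxcl10 encodes a chemokine that attracts T cells through CXCR3. It had 58 counts in untreated cells, 65 in BLA and 71 in BLU, then 233 in BLA-A and 87 in BLU-A, or 2.18, 2.39, 2.58, 10.05 and 3.28 CPM. BLA-A stood apart from the other four libraries. Its level was 4.62-fold that of untreated cells (3.45 to 6.27), the largest log2 fold change (1.98) of any tested member against untreated cells. The gene (GRCm39 chr5:92494497-92496748, minus strand) overlaps Art3 on the opposite strand, which had 117, 149, 96, 253 and 133 counts in the same order. Art3 had a log2 fold change of 1.22 in BLA-A, and whether its row shares reads with that of Cxcl10 was not tested.

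Bst2 encodes tetherin, which holds budding virions at the cell surface. It had 45 counts in untreated cells, 25 in BLA and 23 in BLU, then 168 in BLA-A and 32 in BLU-A, or 1.69, 0.918, 0.835, 7.25 and 1.21 CPM. BLA-A was again apart, at 4.29-fold the untreated level (3.07 to 6.11, log2 fold change 1.82), while BLA and BLU stood under untreated cells. BLU-A, at 0.715-fold (0.440 to 1.15), could not be told from untreated cells at this depth. The gene (GRCm39 chr8:71986895-71990114, minus strand) overlaps no other annotated gene.

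Usp18 encodes the protease that removes ISG15 from proteins and restrains IFNAR2 signalling. It had 118 counts in untreated cells, 167 in BLA and 103 in BLU, then 27 in BLA-A and 106 in BLU-A, or 4.43, 6.13, 3.74, 1.17 and 4.00 CPM. BLA-A was 3.80-fold under untreated cells (2.49 to 6.01), a log2 fold change of -1.57, and was the lowest library. BLA was the highest. The gene (GRCm39 chr6:121222848-121247877, plus strand) overlaps Gm44148 on the opposite strand, which had 132, 157, 126, 31 and 147 counts and a log2 fold change of -1.57 in BLA-A. How far the 2 rows count reads of the same transcripts was not tested.

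The remaining ISG15 pathway genes did not pass the limit against untreated cells. Isg15 itself had 47 counts in untreated cells, 19 in BLA and 60 in BLU, then 72 in BLA-A and 30 in BLU-A. Its log2 fold changes were -0.92, 0.24, 0.67 and -0.47, with BLA lowest and BLA-A highest. Gm46878, on the opposite strand of Isg15, had 113, 216, 215, 452 and 197 counts and a log2 fold change of 2.08 in BLA-A. Whether it shares reads with Isg15 was not tested. Herc6, the main ISG15 ligase in mouse, was at -0.60 in BLA-A and within 0.27 of 0 elsewhere, and Trim25, a ubiquitin and ISG15 ligase, ranged from -0.18 to 0.36.

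**Figure D3:**
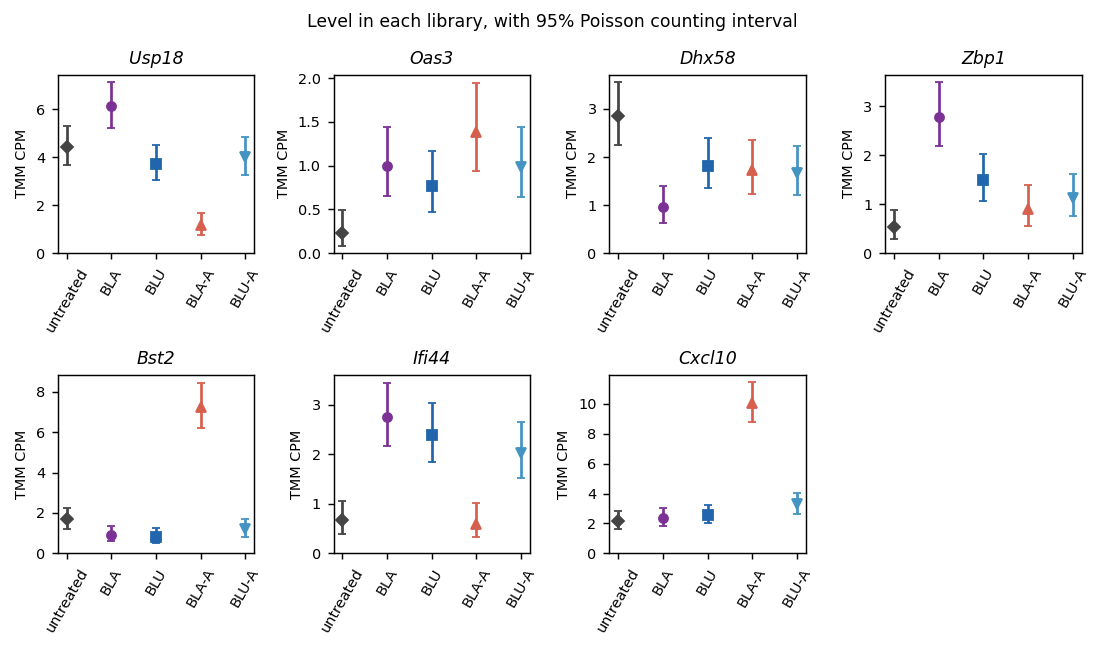
Level (y axis, TMM CPM, from 0) of the 7 interferon-stimulated genes past the limit in at least 1 treatment, with 1 point per library (x axis) and bars for the 95% Poisson counting interval. Cxcl10, Bst2 and Usp18 differ mainly in BLA-A, whereas Ifi44 is at 2.04 to 2.75 CPM in BLA, BLU and BLU-A and near 0.6 CPM in untreated and BLA-A cells.

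Ifi44, a cytoplasmic protein induced by interferon, had 18 counts in untreated cells, 75 in BLA and 66 in BLU, then 14 in BLA-A and 54 in BLU-A, or 0.675, 2.75, 2.40, 0.604 and 2.04 CPM. The BLA level was 4.08-fold that of untreated cells (2.41 to 7.25), the BLU level 3.55-fold (2.08 to 6.35) and the BLU-A level 3.02-fold (1.74 to 5.47). Ifi44 reached 1 CPM only in BLA, BLU and BLU-A. The filter therefore favoured a higher level in them, and no conclusion is drawn from these folds. BLA-A, at 0.894-fold (0.412 to 1.90), could not be told from untreated cells at this depth.

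Zbp1, a sensor of Z-form nucleic acid that can start necroptosis, had 14 counts in untreated cells, 76 in BLA and 41 in BLU, then 21 in BLA-A and 30 in BLU-A, or 0.525, 2.79, 1.49, 0.906 and 1.13 CPM. BLA was 5.31-fold the untreated level (2.98 to 10.2), and untreated cells were the lowest of the 5 libraries. As with Ifi44, only BLA, BLU and BLU-A reached 1 CPM, so no conclusion is drawn from this fold. Dhx58 encodes LGP2, a regulator of RIG-I and MDA5. It had 76 counts in untreated cells, 26 in BLA and 50 in BLU, then 40 in BLA-A and 44 in BLU-A, or 2.85, 0.955, 1.81, 1.73 and 1.66 CPM. BLA was 2.99-fold under untreated cells (1.89 to 4.86), and untreated cells were the highest library.

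The other sensors stayed under the limit. Ifih1, which encodes MDA5, ranged from -0.38 in BLA-A to 0.13 in BLA on the log2 scale. Eif2ak2, which encodes the RNA-activated kinase PKR, stayed within 0.09 of 0 on 1715 to 2310 counts.

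Among the 2′-5′ oligoadenylate synthetases, which activate RNase L, Oas3 was the only one past the limit. It was under 2 CPM in every library, with 6 counts in untreated cells and 21 to 32 in the treated ones, and its log2 fold changes were 1.04, 0.80, 1.37 and 1.03. In BLA-A its level was 6.13-fold that of untreated cells, with an interval of 2.53 to 17.9. Oas3 reached 1 CPM in treated libraries only, so the filter favoured this direction. Oas1a, by contrast, was below 0 in all 4 comparisons, from -0.64 to -0.17, on 25 to 48 counts. Its ratios to untreated cells had intervals that include no change in BLA (0.552 to 1.32) and BLU (0.399 to 1.03). Oasl1, an OAS-like gene, was above 0 in BLA (0.22) and BLA-A (0.65) and below 0 in BLU (-0.70) and BLU-A (-0.56). Oasl2 was at 0.62 in BLA and -0.34 in BLU.

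Oas2 had no counts in untreated and BLA cells and 13 in BLU, which is at least 4.19-fold higher in BLU than in untreated cells when the untreated library is set to 3 counts (2.95-fold at the lower end of the 95% counting interval). Ifit3, of the RNA-binding IFIT proteins, had 20 counts in untreated cells, 0 in BLA and 0 in BLU, then 4 in BLA-A and 20 in BLU-A. BLA was at least 6.81-fold lower and BLU at least 6.89-fold lower than untreated cells by the same floor, with lower ends of the counting interval at 5.05-fold and 5.11-fold. Cmpk2, a mitochondrial nucleotide kinase, had 4, 13, 20, 17 and 4 counts. These members stayed under 1 CPM in every library. Reads that aligned to more than 1 place were not counted, which lowers genes with close copies such as the Ifit, Oas and Gbp families.

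Ifit1 and Ifit2 were tested. Ifit1 was lowest in BLA-A, with 158 counts in untreated cells, 180 in BLA and 123 in BLU, then 73 in BLA-A and 165 in BLU-A, and a log2 fold change of -0.82 there. Ifit2 stayed between -0.28 and 0.24.

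Some members were below 0 in BLA-A without reaching the limit, and those given here were chosen after their values were seen. BLA-A was the lowest library for 32.7% of all genes tested. Parp9, Parp14 and Dtx3l encode partners in ADP-ribosylation and histone ubiquitination, and their log2 fold changes in BLA-A were -0.57, -0.66 and -0.67. In the other treatments the 3 stayed between -0.17 and 0.26. Dtx3l had 1995 counts in untreated cells, 2094 in BLA and 1834 in BLU, then 1088 in BLA-A and 2075 in BLU-A, 1.60-fold lower in BLA-A (1.48 to 1.72). Parp9 and Dtx3l overlap at their starts on opposite strands, so their rows may share reads. Samd9l, an inhibitor of viral translation, had 561, 544, 609, 257 and 601 counts, 1.90-fold lower in BLA-A (1.64 to 2.21). Samd9l passed the limit in BLA-A under scaling by total counts.

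The last effectors and interferon-induced proteins did not pass the limit. Rsad2 (viperin) was above 0 in all 4 comparisons, from 0.02 to 0.71 on 23 to 40 counts, and its sign in BLA turned under total-count scaling. Its intervals include no change in BLA, BLU and BLU-A. The exonuclease gene Isg20 ranged from -0.32 to 0.14. The GTPase gene Gbp2 was below 0 in all 4 comparisons, from -0.70 to -0.12, with intervals that include no change in BLA and BLU. The share of all genes with the same sign in all 4 was not counted. Gbp3 ran from -0.87 in BLA to 0.30 in BLU-A. Ifi27, Ifi35 and the pro-apoptotic Xaf1 ranged together from -0.72 to 0.18. Ifi27 had 554, 450, 637, 402 and 568 counts, and Ifi27l2a, which overlaps it on the opposite strand, had 572, 477, 673, 409 and 643. Ifi35 overlaps Vat1 on the opposite strand. How far such rows share reads was not tested.

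Members were not all lowest in the same library. BLA-A held the lowest level for 14 of 32 members, beside the 32.7% of all genes given above. BLU-A held the highest level for 9 of 32 members, and for 10.9% of all genes. BLA held the highest for 9 members, and for 23.4% of all genes.

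The nanoparticle form was compared with the plain extract of the same berry, each pair from 2 libraries. In BLA-A against BLA, 3 members were higher (Bst2, Cxcl10 and Isg15), against 11.5% of all genes tested, and 3 were lower (Ifi44, Usp18 and Zbp1), against 12.9%. In BLU-A against BLU no member was higher, against 2.87%, and none was lower, against 3.89%. The medians were -0.13 for the blackberry pair and 0.13 for the blueberry pair, with -0.08 and -0.02 over all genes. Whether the pairs differ was not tested.

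Bst2 was 7.90-fold higher in BLA-A than in BLA (5.17 to 12.6) and Cxcl10 was 4.21-fold higher (3.19 to 5.63). Isg15 was 4.45-fold higher (2.66 to 7.82). Usp18 was 5.26-fold lower in BLA-A than in BLA (3.49 to 8.23), Ifi44 4.56-fold lower (2.56 to 8.74) and Zbp1 3.08-fold lower (1.88 to 5.26). Bst2 and Isg15 were under 1 CPM in BLA, and Ifi44 and Zbp1 in BLA-A, so the filter bears on these values. In the blueberry pair the same genes had log2 differences from -0.71 (Isg15) to 0.36 (Bst2). Of the genes past the limit in the blackberry pair, 47.1% were higher under TMM and 36.2% under total counts, where Ifit1 was also lower.

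**Figure D4:**
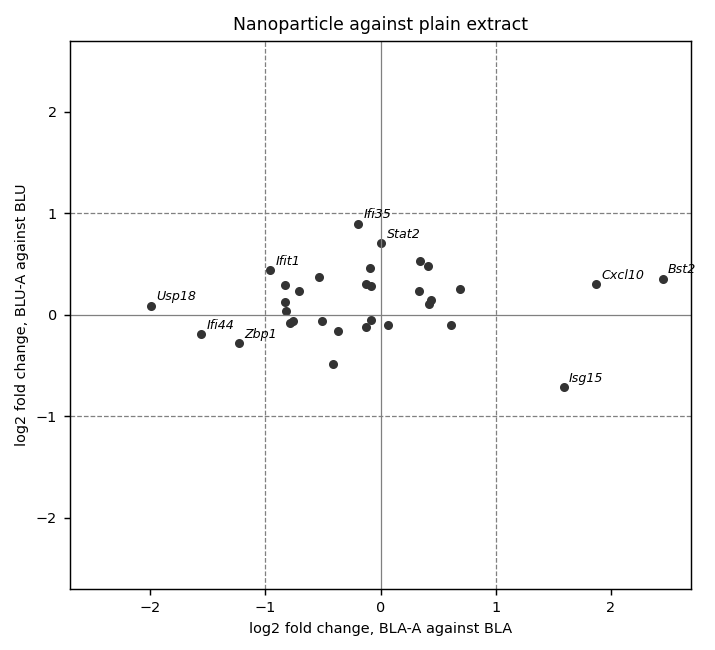
Log2 fold change of each tested interferon-stimulated gene in BLA-A against BLA (x axis) and in BLU-A against BLU (y axis), with dashed lines at the limit of 1 in size. The 6 genes beyond the vertical dashed lines are Bst2, Cxcl10, Isg15, Ifi44, Usp18 and Zbp1, and no gene lies beyond the horizontal ones.

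Members with the ISRE core were set beside those without, as a description. In BLA-A the 10 tested members with the core had a median log2 fold change of 0.61, from -0.82 (Ifit1) to 1.98 (Cxcl10), and the 16 with a promoter but no core had a median of -0.21. Of the 10, 6 were under 1 CPM in at least 1 library, against 1 of the 16, so the filter bears on the first median. The 4 with the core at 1 CPM in every library (Stat2, Ifit1, Gbp2 and Cxcl10) had a median of 0.01, and the 15 without it -0.28, a split chosen after seeing the data. In the other treatments the medians of the 10 and the 16 were -0.05 and 0.04 (BLA), -0.12 and -0.11 (BLU), and 0.19 and 0.09 (BLU-A). Of the 6 genes printed with their core, Bst2 and Cxcl10 were past the limit in BLA-A, Stat2 (0.55) and Isg15 (0.67) were above 0, and Ifit1 and Gbp2 were below 0. For Cxcl10, Bst2 and Isg15 the largest count, by which the genes were picked, was that of BLA-A. The pick therefore favoured a high level in BLA-A, and no conclusion is drawn from these values.

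Upstream of the members, the interferon genes were hardly counted. Of 21 in the table, 16 had 0 counts in all 5 libraries, including Ifnb1 and Ifng, and the largest count was 22 (Ifnk in BLU-A, a gene chosen after its values were seen). None reached 1 CPM, so none was tested.

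Of the 9 receptor and kinase genes, all tested, Ifnlr1 alone passed the limit, in all 4 treatments. It makes up 11.1% of the 9, beside 7.92% (BLA), 5.66% (BLU), 8.54% (BLA-A) and 3.35% (BLU-A) of all genes higher. These shares are for each comparison alone, and the share of all genes past the limit in all 4 was not counted. The 4 comparisons share the same untreated library, so they are not 4 separate results. Ifnlr1 encodes the specific chain of the interferon-lambda receptor. It had 74 counts in untreated cells, 188 in BLA and 228 in BLU, then 144 in BLA-A and 183 in BLU-A, or 2.78, 6.90, 8.27, 6.21 and 6.91 CPM. Every treated library was above the untreated one, by 2.24-fold (1.68 to 3.00) in BLA-A to 2.98-fold (2.28 to 3.93) in BLU.

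In the list of 15 tested nucleic acid sensing and signalling genes, Sting1 was lower in BLA and Ticam1 higher in BLA-A (6.67% of the list each, beside 8.54% of all genes in both cases), and no other passed. In the list of 10 tested negative regulators, Ptpn6 was higher in BLA-A (10% of the list, beside 8.54%) and no other passed. A further list of 57 tested interferon-induced genes had 3 higher (5.26%) and 2 lower (3.51%) in BLA, beside 7.92% and 8.54% of all genes. It had 5 higher (8.77%) and 7 lower (12.3%) in BLA-A, beside 8.54% and 12.4%. In BLU 2 were higher (3.51%, beside 5.66%), in BLU-A 1 was higher (1.75%, beside 3.35%), and in both 0 were lower. Its median in BLA-A was -0.27, the same as that of the members. Ifitm2, a membrane protein that blocks viral entry, was the 1 gene of it past the limit in more than 1 treatment at 5 CPM or above. It stood at 46.7 CPM in untreated cells, 21.6 in BLA and 34.8 in BLU, then 111.5 in BLA-A and 44.9 in BLU-A, lower in BLA and higher in BLA-A.

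The 4 treated libraries were then fitted together against the untreated one with the edgeR quasi-likelihood test, which takes the spread from the treated libraries because the untreated one has no replicate. That spread holds the differences between the 4 treatments, so a member that moved in only some of them could hardly pass. No member passed an adjusted p of 0.05, against 4 of 17647 genes (0.0227%). The smallest adjusted p of a member was 0.999. No member had an unadjusted p under 0.05, against 481 genes (2.73%), and DESeq2 also called no member. Oas3 had the largest log2 fold change of a tested member in this edgeR fit, 2.17 ± 1.25 (SE). Its log2 fold changes given above, from 0.80 to 1.37, are smaller and were taken with a pseudocount added to CPM. With 6 counts in untreated cells, Oas3 reached 1 CPM only in treated libraries. The filter therefore favoured a higher level in treated cells, and no conclusion is drawn from this value. Without the BLA-A library the edgeR fit still called no member.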

How the data were processed

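Raw, unnormalised gene counts were deposited by the authors in 15 columns. Per the study's methods and supplement, ribosomal RNA was removed, merged reads were aligned to GRCm39 with STAR and counted by strand on whole genes, introns included, in OmicsBox, and reads of mapping quality under 10 or with several positions were left out. DESeq2 1.36.0 is named in the submitters' processing notes. Because mates were merged, reads of overlapping genes on opposite strands may not be told apart. Of the 35 members, 20 overlap a gene on the opposite strand.

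The deposited table of fold changes, p-values and FDR and the deposited enrichment table hold the authors' own comparisons and were not used.

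The 3 columns of a condition were averaged, rounded and used as 1 library where their chi-square per degree of freedom (over genes averaging 10 counts or more) was under 1.5, which held for all 5 conditions. Genes with 1 CPM in at least 1 library were tested. Counts were scaled by TMM in edgeR 4.0.16, and fold changes were taken on CPM plus 0.5. Fold ratios with intervals are ratios of scaled counts without it, with exact conditional binomial 95% intervals for counting error. For all treatments at once, edgeR's quasi-likelihood F-test set the 4 treated libraries against the untreated library, with p-values adjusted by Benjamini-Hochberg and a limit of 0.05, and the script was tested on simulated data. DESeq2 1.42.0, R 4.3.3, Python 3.11.15, numpy 2.4.6, pandas 2.3.3 and scipy 1.17.1 were also used.

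Gene positions came from GENCODE M39 on GRCm39, promoters from RefSeq on GRCm38.p6. The members and lists were chosen with earlier results of these data known. Levels in each library are given for members past the limit with at least 2 CPM in 1 library and for the transcription factors. Of the other lists, genes past the limit in at least 2 treatments with at least 5 CPM are named. The levels of other genes, among them Isg15, Ifit1, Dtx3l, Samd9l, Oas3 and the overlapping genes, were given after their values were seen.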

Additional observations from a re-analysis of the deposited data

How the results depend on the processing

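Between 2 libraries the counts of changed members rest on few reads, and the limits of 1 library per condition hold throughout. Counts of changed members that moved by over 1.5 times were these. Requiring 1 CPM in every library left 2 changed members in BLA-A, 2 in BLA-A against BLA and 0 in BLA, BLU and BLU-A. A pseudocount of 2 CPM gave 3 in BLA-A against BLA and 0 in BLA, BLU and BLU-A. In BLU a pseudocount of 0.1 CPM gave 3. Without the filter on low counts there were 2 in BLU, and 1 in BLU-A against BLU. Leaving out each column number in turn gave 1 to 2 in BLU and 1 to 2 in BLU-A. Scaling by total counts or by DESeq2 size factors moved no count by over 1.5 times. No alternative to the quasi-likelihood test of treated against untreated cells called a member. Over all genes that fit called 4, DESeq2 called 17, and without the BLA-A library 34 were called, with a smallest member adjusted p of 0.476 in edgeR.

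With the 15 columns taken as samples, which counts subsets of 1 library as replicates, 4 members changed in BLU without a replicate block and 4 with the replicate block. The block changed no count of members. Same-numbered columns did not deviate together (mean correlation -0.00031 over 30 pairs, from -0.0304 to 0.0306). Subsets of 1 library would differ by sampling alone, so these values cannot decide whether the numbers pair the columns.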

Other observations

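Regulators outside the list also differed between libraries, and the 3 given here were chosen after their values were seen. Sting1, the adaptor for cytosolic DNA sensing, stood at 33.4 CPM in untreated cells, 16.2 in BLA and 22.7 in BLU, then 58.0 in BLA-A and 31.6 in BLU-A, so both plain extracts were under untreated cells and BLA-A was above. Irf2, a repressor of interferon-stimulated promoters, stood at 118.5 CPM in untreated cells, 215.3 in BLA and 210.8 in BLU, then 99.8 in BLA-A and 161.8 in BLU-A. Its log2 fold changes of 0.86 in BLA and 0.83 in BLU stayed under the limit, and BLA-A was 2.16-fold under BLA (2.06 to 2.26). Ptpn6, the phosphatase SHP-1, stood at 9.12, 7.97, 6.39, 22.2 and 12.0 CPM in the same order.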
